A study of Mus musculus with 6 samples.

Results

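A set of 10 secreted factors of skeletal muscle was followed in hind leg muscle of sedentary and treadmill-trained mice by RNA sequencing. The genes were taken by symbol from a table of 16759 genes, and all 10 members were present: osteocrin (Ostn), the irisin precursor (Fndc5), interleukin 15 (Il15), meteorin-like (Metrnl), apelin (Apln), brain-derived neurotrophic factor (Bdnf), leukaemia inhibitory factor (Lif), interleukin 6 (Il6), fibroblast growth factor 21 (Fgf21) and growth differentiation factor 15 (Gdf15). All mice were male C57BL/6J and were 8 weeks old when training began. The exercise (EX) group of 3 mice ran on a motor-driven treadmill in daily sessions of 60 min, 5 per week, over 6 weeks, covered 22 km per mouse and was killed 24 h after the last session. The control (Con) group of 3 mice was not trained, and the time of its tissue collection relative to any handling was not given. After perfusion with buffered saline and removal of the fat between muscles, a piece of tissue the size of a soybean was used for each library, and the muscle it came from was not named.

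Myokines are proteins that muscle releases to act on the muscle itself or on distant tissue. Osteocrin (also called musclin) binds the natriuretic peptide clearance receptor and so slows the removal of natriuretic peptides, which signal through cyclic GMP. Fndc5 encodes a membrane protein whose outer part is shed as irisin, interleukin 15 is carried to the cell surface by its own receptor alpha chain, and interleukin 6 and leukaemia inhibitory factor share the signalling chain gp130. Apelin acts through a single receptor coupled to G proteins, FGF21 needs the co-receptor beta-Klotho, and GDF15 acts on GFRAL together with RET. A transcript level does not show how much protein was stored or released.

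The 6 libraries held between 13845362 and 16240431 counts on genes. Levels are printed as CPM, in which counts are scaled by TMM so that libraries can be compared. Where a library has no count of a gene, its true level may still reach 3 counts, or 0.188 to 0.214 CPM, a limit for counting error alone. Changes are log2 fold changes of EX over Con with standard errors from edgeR's quasi-likelihood test, and p-values are two-sided and adjusted by the Benjamini-Hochberg method over the 16716 genes with a count in any library. With an adjusted p under 0.05 as the threshold, 2013 of these genes were called, which is 12%, with 1016 (6.08%) higher and 997 (5.96%) lower in EX muscle. The higher calls were 50.5% of all calls, and this split moved to 38.9% when library totals left out the 20 most abundant genes, to 31.7% with limma on log2(FPKM + 0.1), to 32.5% on log2(FPKM + 1) and to 20.8% on log2(TPM + 0.1). Each library came from 1 mouse, and libraries of one group differed by more than sampling noise, with a chi-square per degree of freedom between 1.71 and 3.79. The tissue held muscle fibre transcripts at a summed level of 157158 to 177337 CPM over 10 fibre markers.

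Of the 10 myokine transcripts, 1 rose and 1 fell after training, and 8 did not pass the test. Ostn rose 2.64-fold and Fndc5 fell to 0.816 of its Con level. The share called, 2 of 10, is set against 12% of all genes tested, and with so few genes it carries no weight of its own. The 2 groups were fully separate for 4 of the 10 members, with Ostn, Lif and Apln above and Fndc5 below in EX muscle, where 26.7% of all genes tested did not overlap (13.4% above and 13.3% below). The calls of all 10 members were the same in each of the alternative analyses that gave them a value.

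**Figure D1:**
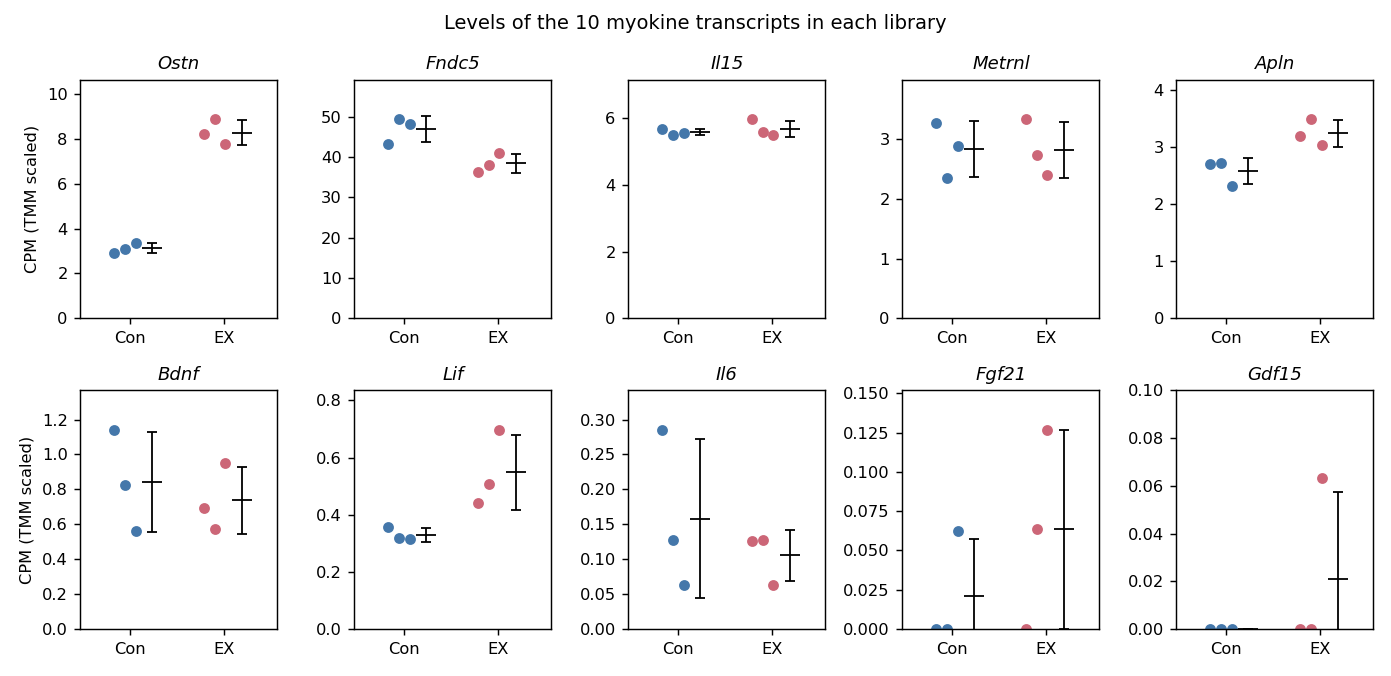
Levels of the 10 myokine transcripts in each library, in TMM-scaled CPM on axes that start at 0, with Con in blue and EX in red. Each point is 1 mouse, and the bar with whiskers is the mean ± SD (n = 3), cut at 0 where the SD is larger than the mean. Ostn lay between 2.92 and 3.38 CPM in Con and between 7.78 and 8.88 CPM in EX, whereas Fgf21 and Gdf15 did not exceed 2 counts in any library.

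Osteocrin is a small peptide of muscle and of bone-forming cells, and Ostn showed the clearest change of the 10. Its counts were 41, 49 and 54 in Con replicates 1 to 3 and 131, 140 and 123 in EX replicates 1 to 3. On the CPM scale, these were 2.92, 3.11 and 3.38 in Con and 8.23, 8.88 and 7.78 in EX. Every EX mouse lay above every Con mouse, and the lowest EX value was well above the highest Con value. The mean rose from 3.14 ± 0.233 to 8.30 ± 0.554 CPM (SD, n = 3), a log2 fold change of 1.40 (SE 0.14, 95% interval 1.12 to 1.67) with an edgeR adjusted p of 7.2e-11. The fold was 2.64, with an interval of 2.18 to 3.19. Over the alternative analyses, the log2 fold change ranged from 1.13 to 1.46, and the adjusted p did not exceed 6.6e-04. In the annotation of the earlier assembly GRCm38, Ostn overlaps 2 genes on the other strand, an antisense RNA (Gm32312) and a pseudogene (Gm15970), which the table does not list. Whether the counting used strand was not given, and their reads could then not be told apart from those of Ostn. The summed level of 8 markers of bone-forming cells, a list chosen after the data were seen, was 30.7 to 33.2 CPM in Con and 21.2 to 24.9 CPM in EX, with 2 of the 8 lower (Ibsp and Spp1) and 6 not past the test, and their part in the values of Ostn was not tested.

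Fndc5 is a target of the coactivator PGC-1 alpha in muscle and gives rise to irisin. The Con libraries held 609, 778 and 771 counts of it and the EX libraries 577, 600 and 647. These correspond to 43.3, 49.3 and 48.3 CPM in Con and 36.3, 38.1 and 40.9 CPM in EX. All EX values lay below all Con values, but the gap between the highest EX mouse and the lowest Con mouse was small. The mean fell from 47.0 ± 3.19 to 38.4 ± 2.36 CPM (SD, n = 3), a log2 fold change of -0.29 (SE 0.06, 95% interval -0.41 to -0.17) with an edgeR adjusted p of 2.8e-04. The fold was 0.816, with an interval of 0.752 to 0.886. The log2 fold change ranged from -0.38 to -0.25 over the alternatives, and the adjusted p was highest, 0.0492, without EX replicate 1. The sum of 10 fibre markers was 157158 to 164739 CPM in Con and 168420 to 177337 CPM in EX, with 3 markers higher (Acta1, Mylpf and Actn3) and 3 lower (Mb, Myh1 and Myh2), and their part in the values of Fndc5 was not tested. The 3 higher fibre calls were lost with limma on FPKM or TPM, that of Mb without EX replicate 1 or EX replicate 3, and that of Myh1 with median-ratio scaling, with filterByExpr and without any one library other than Con replicate 1.

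The promoter of Fndc5 is shown because it is the only one of the 2 members past the threshold with an entry in the RefSeq promoter table (GRCm38.p6), which spans 250 bases before to 50 after the start. It lies at chr4:129136749-129137048 on the plus strand, and these positions are those of that table, since the sources used here name more than one assembly for the counts. Matches to GGGCGG on either strand, the GC box that binds factors of the Sp family, are in capitals.
Fndc5 promoter: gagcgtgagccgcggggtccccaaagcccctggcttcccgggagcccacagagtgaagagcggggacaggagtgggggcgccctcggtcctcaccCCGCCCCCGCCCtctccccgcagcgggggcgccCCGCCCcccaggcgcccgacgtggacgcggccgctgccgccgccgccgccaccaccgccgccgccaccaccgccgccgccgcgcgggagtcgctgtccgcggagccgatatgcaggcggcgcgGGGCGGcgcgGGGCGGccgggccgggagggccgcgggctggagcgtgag
The window held 5 such matches, none of TATAAA (the TATA box) and none of TGACG (the core of the cyclic AMP response element), each searched on both strands. At least 1 GC box was held by 35.7% of the 32851 promoters of the table, a TATA box by 13.6% and TGACG by 20.8%. Its GC content was 82.3%, at or above that of 99.6% of all promoters, whose median was 52.7%. Of the 10 members, 8 had 15 promoter entries, and the Metrnl window also held 5 GC boxes, the Fgf21 window 3, the Apln window 1 and 2 of the 7 Bdnf windows 2 and 1. A TATA box was found in the Fgf21 window alone among the members. Each match is a run of letters and not a site shown to be bound.

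Interleukin 15, a cytokine that keeps natural killer cells and memory T cells alive, was read from 80, 87 and 89 counts in Con and 95, 88 and 87 counts in EX. Its levels were 5.69, 5.51 and 5.57 CPM in Con and 5.97, 5.58 and 5.50 CPM in EX, so the groups overlapped. The log2 fold change of Il15 was 0.02 (SE 0.13, 95% interval -0.24 to 0.28, edgeR adjusted p = 0.941). A rise or a fall larger than the bounds of 0.849-fold and 1.22-fold lay outside the interval.

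Meteorin-like, which acts on fat tissue and on immune cells, gave 46, 37 and 46 counts in Con and 53, 43 and 38 counts in EX. In CPM, Metrnl was at 3.27, 2.35 and 2.88 in Con and at 3.33, 2.73 and 2.40 in EX. The groups overlapped over nearly their whole range. The means were 2.83 ± 0.466 and 2.82 ± 0.470 CPM (SD, n = 3), with an interval of -0.37 to 0.37 for the log2 fold change (edgeR adjusted p = 0.997).

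Apelin, a peptide of fat, endothelium and muscle, was higher in each EX mouse but did not pass the test. Its counts were 38, 43 and 37 in Con and 51, 55 and 48 in EX. The levels of Apln were 2.70, 2.73 and 2.32 CPM in Con and 3.20, 3.49 and 3.04 CPM in EX, with no overlap. The log2 fold change was 0.33 (SE 0.18, 95% interval -0.02 to 0.68), the unadjusted p was 0.066 in edgeR's test and the adjusted p was 0.253. Over the alternatives, the adjusted p lay between 0.202 and 0.586. The sum of 8 blood vessel endothelial markers was 859.1 to 874.1 CPM in Con and 743.9 to 762.2 CPM in EX, with 5 of the 8 lower (3 without Con replicate 2 or without EX replicate 3), and their part in the values of Apln was not tested.

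**Figure D2:**
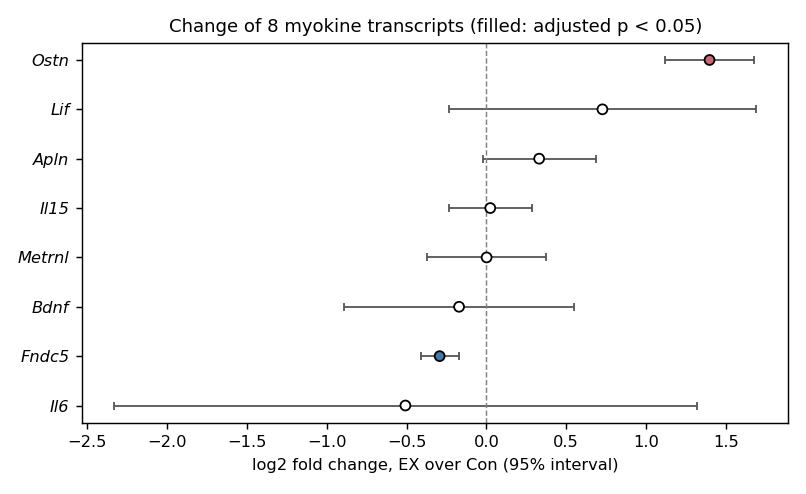
Log2 fold changes of EX over Con with 95% intervals from edgeR for the 8 myokine transcripts with more than 3 counts in a library, with filled points for an adjusted p under 0.05. Ostn (1.40) and Fndc5 (-0.29) lie away from 0, whereas the intervals of Lif and Il6 span more than 1.5 log2 units.

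The other members were read from few counts. Bdnf, which encodes a neurotrophin made by neurons and muscle, was covered by 16, 13 and 9 counts in the Con libraries and 11, 9 and 15 in the EX libraries, or 1.14, 0.824 and 0.564 CPM against 0.691, 0.571 and 0.949 CPM. The groups overlapped, and the interval of the log2 fold change ran from -0.89 to 0.55 (edgeR adjusted p = 0.822). An antisense gene (Gm45346) overlaps Bdnf on the other strand in GRCm38 and is not listed in the table. Lif was covered by 5 counts in each Con library and by 7, 8 and 11 in the EX libraries, or 0.356, 0.317 and 0.313 CPM against 0.440, 0.507 and 0.696 CPM. All EX values of Lif were above all Con values, with a log2 fold change of 0.73 whose interval ran from -0.24 to 1.69 (edgeR adjusted p = 0.389).

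Il6, the cytokine that contracting muscle releases during a bout, was covered by 4, 2 and 1 counts in Con libraries and by 2, 2 and 1 in EX libraries. The interval of its log2 fold change, -2.33 to 1.32, allowed a large change in either direction (edgeR adjusted p = 0.788). Fgf21, a hormone that fasted liver and stressed muscle release, was covered by 0, 0 and 1 counts in Con libraries and by 0, 1 and 2 in EX libraries. Gdf15, a stress-induced factor that lowers food intake, was at 0 in all Con libraries and was covered by 1 count in EX replicate 3 alone. Both genes were at or under the limit that a count of 0 allows, so no fold is given and a change was not detectable at this depth. Whether any of these transcripts moved shortly after a session cannot be read from tissue collected 24 h later.

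Levels of different genes were compared only as FPKM, the authors' values per length of transcript. In Con muscle, Fndc5 stood first with 19.5 ± 1.42 FPKM, followed by Il15 with 5.36 ± 0.186, Ostn with 3.39 ± 0.287, Metrnl with 1.35 ± 0.217 and Apln with 0.930 ± 0.0781 (SD, n = 3). The ranges of neighbours among these 5 did not overlap. In EX muscle, Fndc5 was still first with 15.3 ± 0.914 FPKM, but Ostn came next with 8.61 ± 0.540 and then Il15 with 5.12 ± 0.282 FPKM, again with no overlap. Metrnl (1.29 ± 0.225 FPKM) and Apln (1.12 ± 0.0751 FPKM) overlapped in EX muscle. The other 5 stood lower, with group means from 0 to 0.233 FPKM, and their ranges overlapped between neighbours in both groups.

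**Figure D3:**
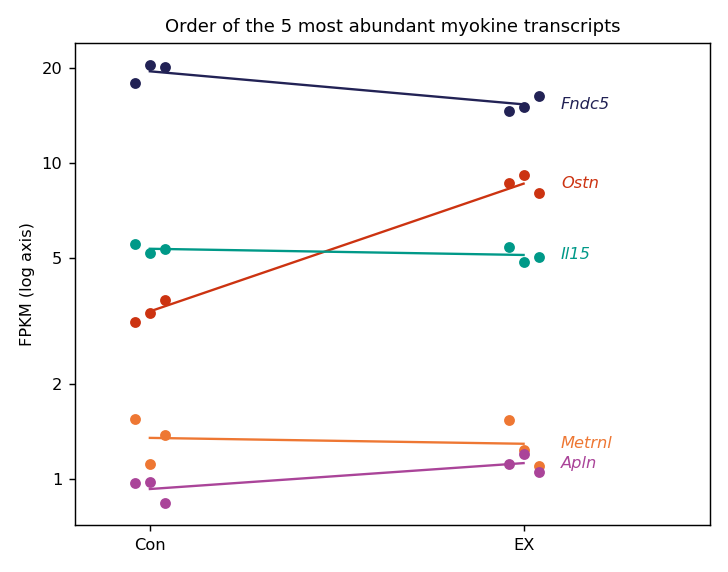
FPKM of the 5 most abundant myokine transcripts in each library on a log axis, with Con on the left and EX on the right. Points are mice and lines join the group means. The lines of Ostn and Il15 cross, since Ostn stood below Il15 in Con (3.39 FPKM) and above it in EX (8.61 FPKM).

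The ratio of Fndc5 to Ostn, a pair chosen after their values were seen, was 5.72, 6.12 and 5.45 on the FPKM scale in Con and 1.69, 1.65 and 2.03 in EX. Its mean fell from 5.76 ± 0.335 to 1.79 ± 0.209 (SD, n = 3). No test is given, since both genes were already seen to separate the groups. The ratio of Il15 to Ostn was 1.77, 1.55 and 1.44 in Con and 0.629, 0.534 and 0.627 in EX. Ostn made up 10.5%, 10.6% and 11.6% of the summed FPKM of the 10 members in Con and 27.2%, 28.5% and 24.9% in EX. The share of Fndc5 was 59.95%, 64.8% and 63.3% in Con and 45.9%, 47.0% and 50.5% in EX.

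The genes of the receptor system that osteocrin acts on were then described. The 3 natriuretic peptide receptors have separate roles. Npr1 and Npr2 encode guanylyl cyclases for atrial and C-type natriuretic peptides, and Npr3 encodes the clearance receptor that binds osteocrin. Npr1 was at 36.5, 32.5 and 38.6 CPM in Con and at 29.6, 29.4 and 29.7 CPM in EX. The EX mice were lower than all Con mice and close to each other, and Npr1 fell by 0.28 on the log2 scale (SE 0.06, edgeR adjusted p = 0.00165), a call that was lost without EX replicate 1 (adjusted p = 0.058). Npr2, at 69.7 ± 0.351 CPM in Con and 65.4 ± 4.74 CPM in EX (SD, n = 3), did not pass the test (log2 fold change -0.09, 95% interval -0.20 to 0.01, edgeR adjusted p = 0.279). Npr3 was at 4.41, 4.37 and 4.26 CPM in Con and at 3.90, 3.49 and 2.97 CPM in EX. These values did not overlap, but Npr3 did not pass the test after adjustment (log2 fold change -0.33, 95% interval -0.64 to -0.02, edgeR adjusted p = 0.18).

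Nppc, which encodes C-type natriuretic peptide, was the one gene of the 14 related ligands in the table that rose by edgeR's test, and with 1 lower gene the share called, 14.3%, is close to the 12% of all genes tested. With limma on log2(FPKM + 0.1) and log2(TPM + 0.1), 2 related ligands were higher, the other being Fgf23, which had at most 5 counts in a library and is named after its values were seen. The reads of Nppc numbered 5, 5 and 3 in Con and 19, 12 and 11 in EX, or 0.356, 0.317 and 0.188 CPM against 1.19, 0.761 and 0.696 CPM. The lowest EX value was above the highest Con value, although both groups were low. The log2 fold change was 1.61 (SE 0.44, 95% interval 0.72 to 2.51) with an edgeR adjusted p of 0.00973. The call was lost with DESeq2 (adjusted p = 0.0941), without Con replicate 3 (edgeR adjusted p = 0.0626) and without EX replicate 1 (edgeR adjusted p = 0.115). Its promoter window lies at chr1:86670524-86670823 (GRCm38.p6, minus strand) and is shown because Nppc moved in the same direction as Ostn, whose own promoter had no entry, with GGGCGG and TATAAA matches in capitals.
Nppc promoter: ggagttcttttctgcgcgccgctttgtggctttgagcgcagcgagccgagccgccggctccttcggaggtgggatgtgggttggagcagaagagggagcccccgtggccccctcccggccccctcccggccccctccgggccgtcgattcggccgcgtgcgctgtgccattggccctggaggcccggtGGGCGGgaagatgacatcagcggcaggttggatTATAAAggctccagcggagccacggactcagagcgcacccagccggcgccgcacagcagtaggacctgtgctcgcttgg
It held 1 GC box and 1 TATA box that did not overlap, no match to TGACG, and a GC content of 69.3%, at or above that of 89.9% of all promoters.

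Prkg1, which encodes the cyclic GMP-dependent protein kinase that relays the signal of the guanylyl cyclase receptors, fell. It was at 38.1, 37.6 and 39.4 CPM in Con and at 28.8, 28.9 and 28.7 CPM in EX. The groups were far apart against the spread within each, and Prkg1 fell by 0.42 on the log2 scale (SE 0.06, edgeR adjusted p = 7.5e-07), a call made in every alternative. Of the 8 endothelial markers, 5 were also lower in EX muscle, or 3 without Con replicate 2 or without EX replicate 3, and the part this plays in the values of Npr1 and Prkg1 was not tested. In bulk tissue, fewer cells of a type and less RNA per cell cannot be told apart.

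**Figure D4:**
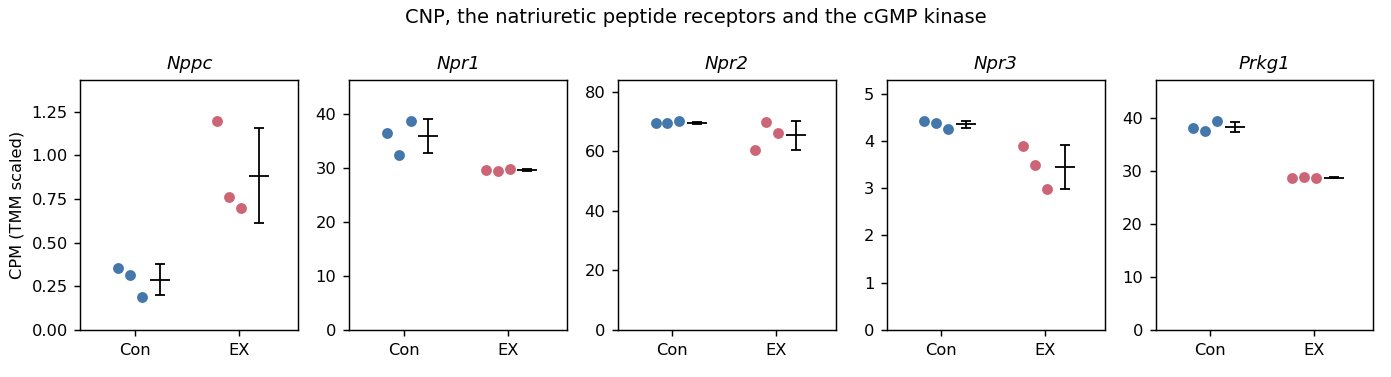
Levels in TMM-scaled CPM of C-type natriuretic peptide (Nppc), the 3 natriuretic peptide receptors and the cyclic GMP kinase Prkg1 in each library, with Con in blue and EX in red, the mean ± SD (n = 3) beside the points, and axes from 0. Nppc lies higher in EX than in Con, Npr1, Npr3 and Prkg1 lie lower with no overlap, and Npr2 overlaps.

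Over all 23 receptors and receptor chains of the 10 members in the table, 4 rose and 5 fell. This is 39.1% called, against 12% of all genes tested and 17.9% of the 10883 genes whose FPKM averaged 1 or more. The list was chosen with earlier results of these data known, so its share carries no weight of its own. The median log2 fold change of the receptors was -0.05 over the 14 with a mean of at least 1 FPKM, against a median of -0.00045 for all such genes. Several of these calls depended on the analysis, and with DESeq2 only 1 of the 4 higher receptors was called, with limma on FPKM or TPM none. Leaving out EX replicate 1 gave 1 higher and 2 lower receptors, EX replicate 3 gave 2 and 2, EX replicate 2 and Con replicate 2 each gave 2 and 3, and Con replicate 3 gave 1 and 5. Gfral, which encodes the receptor of GDF15, was not listed in the table.

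The chains of the interleukin 15 receptor differed in their results. Il15ra, the alpha chain that presents the cytokine to neighbouring cells, was at 34.2, 34.3 and 33.3 CPM in Con and at 29.7, 28.2 and 25.6 CPM in EX. All EX mice were below all Con mice, and Il15ra fell by 0.29 on the log2 scale (SE 0.06, edgeR adjusted p = 0.00113), in every alternative past the threshold. The common gamma chain Il2rg was at 2.73 ± 0.147 and 2.63 ± 0.242 CPM (SD, n = 3) and did not pass the test (edgeR adjusted p = 0.899). The beta chain Il2rb had at most 3 counts in a library. Ligand and receptor thus gave different results here, with Il15 overlapping between groups and Il15ra lower in EX, and whether the changes of these genes differ from each other was not tested. The summed level of 6 lymphocyte markers was 0.626 to 1.42 CPM in Con and 0.251 to 0.381 CPM in EX, with Cd3e and Cd3d at 0 in all EX libraries and at no more than 2 counts in any Con library, and none of these markers was called by edgeR (1 at an unadjusted p under 0.05) or limma, and DESeq2 gave them no adjusted p.

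For irisin, which has been reported to bind integrins that contain the alpha V chain, Itgav rose from 27.6 ± 0.997 to 32.02 ± 2.74 CPM (SD, n = 3, log2 fold change 0.22, edgeR adjusted p = 0.0222). This call was lost in 8 alternatives, among them DESeq2 (adjusted p = 0.129) and the fits without Con replicates 1 or 3 or EX replicate 1. Itgb5, the beta chain of the pair, was lower in each EX mouse, at 150.9 ± 6.90 and 139.8 ± 2.30 CPM (SD, n = 3), and did not pass the test (edgeR adjusted p = 0.0864), although it did in 5 alternatives. Kit, reported as a receptor of meteorin-like and best known as the receptor of stem cell factor, fell from 4.04 ± 0.201 to 2.76 ± 0.213 CPM (SD, n = 3, log2 fold change -0.55, edgeR adjusted p = 0.0183). DESeq2 did not call Kit (adjusted p = 0.171), and neither did the fits without Con replicate 3 or without any one EX replicate.

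The receptor chains of the gp130 group were measured at higher counts than Il6 and Lif. Il6st, which encodes gp130 itself, fell from 245.2 ± 4.72 to 221.6 ± 0.350 CPM (SD, n = 3), a fall of 0.15 on the log2 scale (edgeR adjusted p = 0.00606). The call of Il6st was lost without Con replicate 2 (adjusted p = 0.0638) and without EX replicate 3 (adjusted p = 0.0587). Il6ra and Lifr, which pair with gp130 to bind interleukin 6 and leukaemia inhibitory factor, did not pass the test (edgeR adjusted p = 0.588 and 0.492). Socs3, a feedback inhibitor that gp130 signals induce, was at 7.62, 8.62 and 7.33 CPM in Con and at 6.03, 6.09 and 6.07 CPM in EX. It fell by 0.37 on the log2 scale (edgeR adjusted p = 0.03), but DESeq2 did not call it (adjusted p = 0.199), and neither did 5 of the 6 fits that left out 1 library. Together with Prkg1, it makes 2 lower genes among 12 signalling proteins of these receptors, a share of 16.7% that is close to the 12% of all genes tested and the 17.9% of those whose FPKM averaged 1 or more.

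Among the receptors of the neurotrophins, Ntrk2 (TrkB, the kinase receptor of BDNF) rose from 3.98 ± 0.515 to 5.41 ± 0.596 CPM (SD, n = 3, log2 fold change 0.45, edgeR adjusted p = 0.0334). It was not called by DESeq2 (adjusted p = 0.216), by limma on FPKM or TPM, or without any one library other than Con replicate 1. Sort1, the sorting receptor sortilin, rose from 137.4 ± 3.77 to 150.01 ± 2.03 CPM (SD, n = 3, log2 fold change 0.13, edgeR adjusted p = 0.0347), and its call was lost in 11 alternatives. The values of Ngfr, the low-affinity receptor, were 1.67 ± 0.417 and 1.05 ± 0.353 CPM (SD, n = 3, edgeR adjusted p = 0.123), and Sorcs2 did not pass the test either (edgeR adjusted p = 0.493). Ntf3, the related ligand neurotrophin 3, fell from 4.15 ± 1.03 to 2.86 ± 0.480 CPM (SD, n = 3, edgeR adjusted p = 0.0463) with overlapping groups, and its call was lost in 11 alternatives. Schwann cell markers, whose cells express some of these receptors, summed to 111.4 to 123.4 CPM in Con and 85.4 to 89.1 CPM in EX, with 5 of 7 lower (3 without Con replicate 1 or without EX replicate 3), and their part in these values was not tested.

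Of the FGF receptors that FGF21 can use with beta-Klotho, Fgfr1 fell from 102.8 ± 0.990 to 92.7 ± 0.681 CPM (SD, n = 3, log2 fold change -0.15, edgeR adjusted p = 0.0169), a call lost in all fits that left out 1 library other than Con replicate 1. Fgfr2, Fgfr3 and Fgfr4 did not pass the test (edgeR adjusted p = 0.129, 0.991 and 0.952). Klb, which encodes beta-Klotho, had 1 or 2 counts in each library. Ret, the signalling partner of the GDF15 receptor and also of receptors for other neurotrophic factors, was at 9.32, 7.04 and 9.27 CPM in Con and at 12.5, 11.1 and 12.7 CPM in EX. All EX mice were above all Con mice, with a log2 fold change of 0.51 (SE 0.11, edgeR adjusted p = 5.5e-04), and the call was lost only with limma on FPKM or TPM (adjusted p between 0.116 and 0.141). The apelin receptor Aplnr, at 18.2 ± 1.41 and 18.6 ± 0.316 CPM (SD, n = 3), did not pass the test (log2 fold change 0.03, 95% interval -0.13 to 0.18, edgeR adjusted p = 0.871).

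Among 28 other factors secreted by muscle that were in the table, 7 rose and none fell by edgeR's adjusted p (12 higher and 2 lower at an unadjusted p under 0.05). This is 25% called, against 12% of all genes tested and 17.9% of those whose FPKM averaged 1 or more. The list of these factors was also chosen with earlier results of these data known, so its share carries no weight of its own. The median log2 fold change was 0.14 over the 19 with a mean of at least 1 FPKM, against -0.00045 for all such genes. With limma on FPKM or TPM, 2 of them were higher. None was lower by limma or by DESeq2, which gave no adjusted p for 6 of them, and 1 was lower by edgeR with totals that left out the 20 most abundant genes or without Con replicate 3. Mstn (myostatin, which restrains muscle growth) was at 138, 128 and 128 CPM in Con and at 191, 187 and 181 CPM in EX. It rose in every mouse of the EX group above the Con range (log2 fold change 0.51, SE 0.04, edgeR adjusted p = 4.6e-13). The matrix protein Sparc rose from 298.9 ± 8.20 to 364.1 ± 7.82 CPM (SD, n = 3, edgeR adjusted p = 1.1e-07), and both calls were made in every alternative.

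The other 5 of these 7 changed by at most 1.32-fold. Igf1 (insulin-like growth factor 1) rose by 0.31, Gdf11 (a close relative of myostatin) by 0.40, Fstl1 (follistatin-like 1) by 0.25, Ogn (osteoglycin) by 0.28 and Serpinf1 (pigment epithelium-derived factor) by 0.21 on the log2 scale, with edgeR adjusted p-values from 5.6e-04 to 0.00937. None of them was called with limma on FPKM or TPM. DESeq2 did not call Gdf11 (adjusted p = 0.0641) or Serpinf1 (adjusted p = 0.0685), Igf1 and Gdf11 were also lost without EX replicate 1, and Serpinf1 was lost without Con replicates 2 or 3 or EX replicates 2 or 3. Fibroblast markers, whose cells make several of these proteins, summed to 748.1 to 760.7 CPM in Con and 1051 to 1078 CPM in EX. Of the 8, 3 were higher, the collagen genes Col1a1, Col1a2 and Col3a1, and 1 was lower (Pdgfrb). The other 4 did not pass the test, and the median log2 fold change of the 8 was 0.09. The part of fibroblasts in the values of these secreted factors was not tested.

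Of 20 transcription factors and coactivators that act on myokine genes, 2 rose and 1 fell, and this share of 15% is close to the 12% of all genes tested and the 17.9% of those whose FPKM averaged 1 or more. Nr4a3, an orphan nuclear receptor induced in contracting muscle, was at 1.57, 1.27 and 1.44 CPM in Con and at 4.78, 4.88 and 5.57 CPM in EX. It rose 3.56-fold, with an interval of 2.76 to 4.60 (edgeR adjusted p = 1.2e-10). Jun, a subunit of the AP-1 factor, rose from 127.3 ± 3.75 to 173.8 ± 2.21 CPM (SD, n = 3, edgeR adjusted p = 1.1e-11). Ppara, the fatty acid receptor that controls Fgf21 in liver, fell from 19.4 ± 0.740 to 13.6 ± 0.247 CPM (SD, n = 3, log2 fold change -0.52, edgeR adjusted p = 3.3e-06). These 3 calls were made in every alternative that gave a value, and Nr4a3, whose FPKM averaged under 1, was left out by the filter on FPKM. The other 17, among them the coactivator genes that act on Fndc5, did not pass the test. None of 8 genes for proteases that mature or degrade the peptides was called by edgeR, DESeq2 or limma, and 0 of them had an unadjusted p under 0.05 by edgeR.

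**Figure D5:**
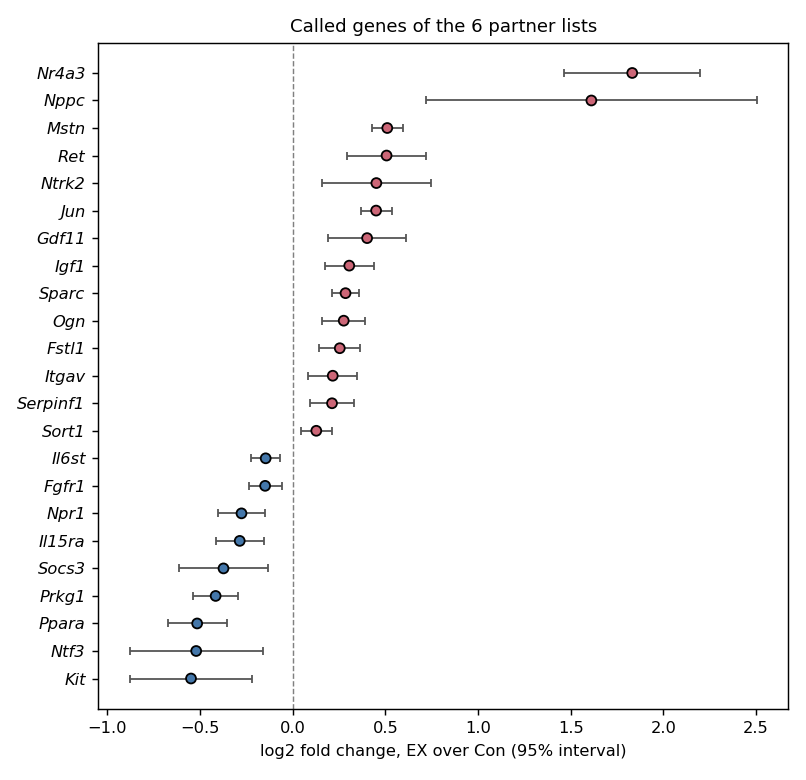
Log2 fold changes of EX over Con with 95% intervals from edgeR for the 23 called genes of the 6 lists of receptors, related ligands, other secreted factors, proteases, regulators and signalling proteins (105 genes in the table), ordered by size. Red points are higher (14 genes) and blue points lower (9 genes) in EX, with Nr4a3 (1.83) and Nppc (1.61) at the top and Kit (-0.55) at the bottom.

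Marker transcripts of several cell types also differed between groups. Slow fibre markers summed to 45.5 to 50.8 CPM in Con and 228.9 to 258.2 CPM in EX, with 6 of 6 higher. The Con sum was mostly Myl3, which rose 1.32-fold, while Tnnt1 rose 19.2-fold and Tnnc1 28.7-fold, and the median log2 fold change of the 6 was 4.55. Macrophage markers summed to 45.5 to 49.8 CPM in Con and 81.2 to 87.5 CPM in EX (6 of 10 higher). Satellite cell markers summed to 63.6 to 67.0 CPM in Con and 81.1 to 85.1 CPM in EX. Of these, 2 of 6 were higher, Myod1 and Myog. Not past the test were Pax7 (means of 7.11 CPM in Con and 6.76 CPM in EX), Myf5 (2.65 and 2.63), Vcam1 (7.28 and 6.87) and Chrdl2 (1.42 and 1.85). Fat cell markers summed to 636.9 to 660.8 CPM in Con and 739.7 to 768.7 CPM in EX (7 of 8 higher). The fat cell sum was mostly Plin4 and Fabp4, whereas Adipoq rose 2.29-fold and Cfd 2.45-fold, and the median log2 fold change was 1.24 over the 6 fat cell markers with a mean of at least 1 FPKM. Every one of these sums was higher in all EX mice, as was Ostn, and the part of slow fibres, macrophages, satellite cells or fat cells in the values of Ostn and the other members was not tested.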

How the data were processed

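Total RNA from hind leg muscle of 3 Con and 3 EX mice was sequenced by the authors as 150 bp paired-end DNBseq libraries, 1 per mouse, and filtered reads were matched to GRCm39 with HISAT. The submitters' processing notes also name GRCm38.p6, cutadapt, featureCounts and MultiQC. The authors deposited estimated counts, not normalized, with their FPKM and TPM values. Between 4.18% and 4.44% of the counts in a library were not whole, and 6 columns of group means were not used.

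Counts were rounded, scaled by TMM and compared with edgeR 4.0.16 (R 4.3.3), without a filter beyond a count in any library. Alternatives were median-ratio scaling, totals without the 20 most abundant genes, a mean of at least 1 FPKM, filterByExpr, DESeq2 1.42.0, limma 3.58.1 on log2(FPKM + 0.1), log2(FPKM + 1) and log2(TPM + 0.1), whose fold changes understate low genes, a replicate block and each library left out.

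The members and gene lists were chosen with earlier results of these data known. All members were named, and from the lists the genes past the threshold and the members' receptors. The ratios, their count-based alternative and the list for bone-forming cells were chosen after values were seen. Promoters came from RefSeq (GRCm38.p6). Total counts ranged from 13845362 to 16240431 per library.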

Additional observations from a re-analysis of the deposited data

How the results depend on the processing

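Of the 10 members, Ostn stayed higher and Fndc5 lower with an adjusted p under 0.05 under all 15 alternatives, and none of the other 8 was called where it had a value. Of 43 genes followed by name, 25 were called. List genes were named if they were called or were receptors, so this is not a share to set against all genes. Of the 25, 9 were called under every alternative that gave them a value (the filter on FPKM left out Nr4a3). Over all genes, 1016 were higher with edgeR, against 628 with DESeq2, 355 with limma on log2(FPKM + 0.1), 361 on log2(FPKM + 1) and 315 on log2(TPM + 0.1), and 997 were lower, against 546 with DESeq2. Leaving out 1 library gave 613 to 912 higher and 497 to 845 lower genes. The lowest values came without EX replicate 3 (613 higher, 535 lower), EX replicate 1 (628 and 497) and, for lower genes, EX replicate 2 (580). In the 6 lists, 14 genes were higher, against 8 with DESeq2, 6, 5 and 6 with limma on log2(FPKM + 0.1), log2(FPKM + 1) and log2(TPM + 0.1), and 8 to 14 without 1 library, the lowest without EX replicate 1. The lower genes numbered 9, and 4 to 10 without 1 library (5 without Con replicate 2, 4 without EX replicates 1 or 3). The cause was not tested.

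Same-numbered Con and EX libraries did not deviate together (r = -0.084, -0.052 and -0.073 across genes, and no library correlated best with its own number), so the numbers do not pair the mice. With the replicate block, 929 genes were higher and 927 lower, Sort1 was no longer called, and no call of a member changed.

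Signs turned only for genes that were not called, and the cause was not tested. With totals without the 20 most abundant genes, then limma on log2(FPKM + 0.1), log2(FPKM + 1) and log2(TPM + 0.1), the log2 fold change was -0.00048, -0.065, -0.055 and -0.10 for Il15, -0.023, -0.059, -0.036 and -0.095 for Metrnl, -0.017, -0.066, -0.044 and -0.097 for Fgfr3 and -0.0034, -0.069, -0.051 and -0.10 for Fgfr4. With limma alone, in the same order, it was -0.023, -0.020 and -0.058 for Aplnr. Metrnl was at -0.0015 with DESeq2 and -0.0076 with the replicate block. Leaving out 1 library gave -0.0067 to 0.051 for Il15, -0.13 to 0.11 for Metrnl, -0.40 to 0.088 for Bdnf, -0.89 to 0.14 for Il6, -0.12 to 0.011 for Il2rg, -0.070 to 0.10 for Fgfr3, -0.13 to 0.11 for Fgfr4 and -0.032 to 0.064 for Aplnr. Filters on expression removed Bdnf, Il6, Lif, Fgf21 and Gdf15 (a mean of at least 1 FPKM), and DESeq2 gave no adjusted p for Il6, Lif, Fgf21 and Gdf15. Depth limits these last 4 members.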
